A study of Mus musculus with 16 samples.

Results

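The course of marrow CD8 T cells in untreated immune marrow failure was followed here by comparing bulk RNA-seq libraries made 10 and 14 days after disease induction. The members are the 8 libraries labelled as untreated bone marrow failure (BMF), 5 at day 10 and 3 at day 14, out of 16 libraries in the series, and they were chosen by their treatment label alone. The other 8 libraries come from BMF mice given baricitinib (BAR), a drug that blocks JAK1 and JAK2, with 5 at day 10 and 3 at day 14. They entered the model to estimate the spread, and otherwise serve here to test where the untreated course differed from the treated one. All cells were flow-sorted as CD8+ T cells from mouse bone marrow, and polyA RNA was amplified with a SMART-Seq kit, so both BMF groups share the induction of disease, the sort and the library chemistry and differ by the day of harvest. The labels used here give no strain, age, sex, induction protocol or baricitinib dose, and no healthy marrow is among these samples. The series' design text speaks of pooled cells, so a library may hold cells of more than 1 mouse, and the p-values measure the spread between libraries, which may be in part technical.

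In immune marrow failure, activated CD8 T cells enter the marrow and destroy blood-forming cells, mainly through perforin and granzymes, the Fas ligand and interferon-gamma. Interferon-gamma signals through JAK1 and JAK2, while the growth cytokines interleukin-2 and interleukin-15 signal through JAK1, JAK3 and STAT5. T cells that meet antigen first divide fast and release cytokines, and under lasting stimulation they take up inhibitory receptors and the factor TOX, a state known as exhaustion. Because the RNA is from bulk cells, fewer cells of a type and less RNA per cell cannot be told apart in any result below.

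Values by library are given in the order of day 10 replicates 1 to 5 and day 14 replicates 1 to 3, and values with ± are means and SD of day 10 (n = 5) and day 14 (n = 3) in that order. The untreated libraries held 26066991 to 48568117 counts at day 10 and 39009325 to 44205147 at day 14. Cd8a stood at 656 to 835 CPM (counts scaled to library size) at day 10 and 686 to 941 at day 14, and Cd3e at 811 to 1126 and 1569 to 1688, whereas Cd4 was at most 1.22 CPM, so the libraries carried the sorted identity. The neutrophil gene S100a8 reached 2991 CPM at day 10 and 6602 at day 14, and the listed globin genes were at 0 in every untreated library. Other erythroid genes were counted, such as Car1 at 5.02 to 38.7 CPM at day 10, so the globin zeros do not show that red cell RNA was absent. Day 10 replicates 1 to 3 carried 4.83% to 5.81% of their counts on the ribosomal RNA gene Rn45s, replicates 4 and 5 carried 2.73% and 1.15%, and the day 14 libraries 1.70% to 2.52%. At equal depth 17283 to 20686 genes were detected at day 10 and 14895 to 15287 at day 14, without overlap, although the number of genes at 1 CPM or more overlapped (11205 to 11673 and 11085 to 11296). The first principal component of the 8 libraries held 76.3% of the variance and put all 3 day 14 libraries on one side (43.0 to 51.9). Day 10 replicate 4 lay nearest to them (8.3), and the other 4 day 10 libraries lay between -56.4 and -15.6. The part of these library differences in the gene results was not tested beyond the refits named beside them.

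By day 14 the untreated CD8 T cells had more RNA of the chemokine Ccl5 and of many genes of the T cell receptor signalling chain. Of the inhibitory and exhaustion-associated genes 13 of 30 rose, among them Tox2, Tigit, Lag3 and Cd244, and 9 fell, among them Ctla4 and Nr4a3. The cells had less RNA of the cell division genes, of granzyme B, of the activation receptor Il2ra, and of stress genes such as Hspa1b. Interferon-gamma and the immediate early gene Fos fell also, but their calls were lost in several refits given below. Of 14862 genes tested, 5728 (38.5%) differed between the days at an adjusted p under 0.05 (edgeR's quasi-likelihood test with Benjamini-Hochberg adjustment over all genes). Among them, 2623 rose (17.6%) and 3105 fell (20.9%). Adjusted p-values below come from this fit unless another tool, a covariate or left-out libraries are named beside them. With no floor on the level, large changes were mostly falls: 1429 genes fell at least 2-fold (9.62%) and 229 rose at least 2-fold (1.54%). Falls did not prevail among called genes of any fold at a mean of 10 CPM or more on either day without overlap. Of these, 1868 rose and 1203 fell. The median log2 change of all genes was -0.045. For 5452 genes (36.7%) the 2 groups did not overlap in CPM, and 4626 of them also passed the test. Without day 10 replicates 1 to 3 together, the calls dropped to 1193 rises and 1266 falls among 14559 genes tested. Counts of list members in a refit below stand against all genes called in that refit, not against 17.6% and 20.9%.

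The 12 largest rises, among genes at 10 CPM or more on at least 1 of the days whose groups did not overlap, were Gsta4, Glp1r, Trf, Slc40a1, Adgrg1, Apoe, Fabp4, Susd2, Rnf122, Tox2, Chn2 and Cep170b, with log2 changes from 2.40 down to 1.73. Of these 12, 8 had a mean under 10 CPM at day 10. Adgrg1 (chr8:94974751-95014217, plus strand of mm10), an adhesion receptor found on cytotoxic lymphocytes, had 46.5, 50.3, 41.6, 41.8 and 49.9 CPM at day 10 and 170.1, 166 and 209 CPM at day 14. Every day 14 library lay far above the highest day 10 library (log2 1.98 ± 0.11 (SE), adjusted p = 4.10e-09). Tox2 (chr2:163203125-163324170, plus strand), a relative of the exhaustion factor Tox, had 13.2, 20.5, 8.07, 12.2 and 16.6 CPM at day 10 and 49.1, 43.97 and 52.99 CPM at day 14, again with a wide gap (log2 1.79 ± 0.20 (SE), adjusted p = 2.04e-05). Among the others, Trf encodes transferrin, Slc40a1 the iron exporter ferroportin, Apoe an apolipoprotein and Fabp4 a fatty acid carrier. Apoe had 7.73, 4.34, 5.57, 4.05 and 8.12 CPM at day 10 and 29.3, 19.6 and 20.97 CPM at day 14 (log2 1.96 ± 0.28 (SE), adjusted p = 0.000117). Slc40a1 ranged over 7.39 to 18.6 CPM at day 10 and 36.4 to 65.7 CPM at day 14 (log2 1.99, adjusted p = 0.00231). Trf rose from 5.96 to 25.3 CPM (log2 2.08, adjusted p = 0.00146). The calls of Trf and Slc40a1 were lost without day 10 replicates 1 to 3. Of 24 monocyte and macrophage markers, 10 rose (against 17.6% of all genes) and 1 fell (against 20.9%). Their summed level overlapped between the days, at 523 to 1213 CPM at day 10 and 752 to 1925 CPM at day 14. The largest member of this sum was Lyz2, which overlapped at 204 to 782 and 193 to 1380 CPM. Several members lay higher at day 14 without overlap. Among them, C1qc was at 6.58 to 11.3 and 18.6 to 28.6 CPM, and Axl at 11.4 to 15.2 and 23.8 to 30.9 CPM. Ms4a6c lay lower, at 30.8 to 48.8 and 16.1 to 24.5 CPM. The overlap of the sum thus does not show that macrophage RNA was alike on both days. Slc40a1 is itself 1 of these markers. In a refit with the mean log2 level of these markers as a covariate, chosen after seeing the data, the log2 change of Apoe was 1.49 (adjusted p = 0.000750) and that of Trf 1.46 (adjusted p = 0.0221). Below, this refit is given where it moved a count of 3 or more called members of a list by over 1.5 times. Over all 14862 genes it called 1939 rises and 2477 falls, fewer than the main fit.

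**Figure D1:**
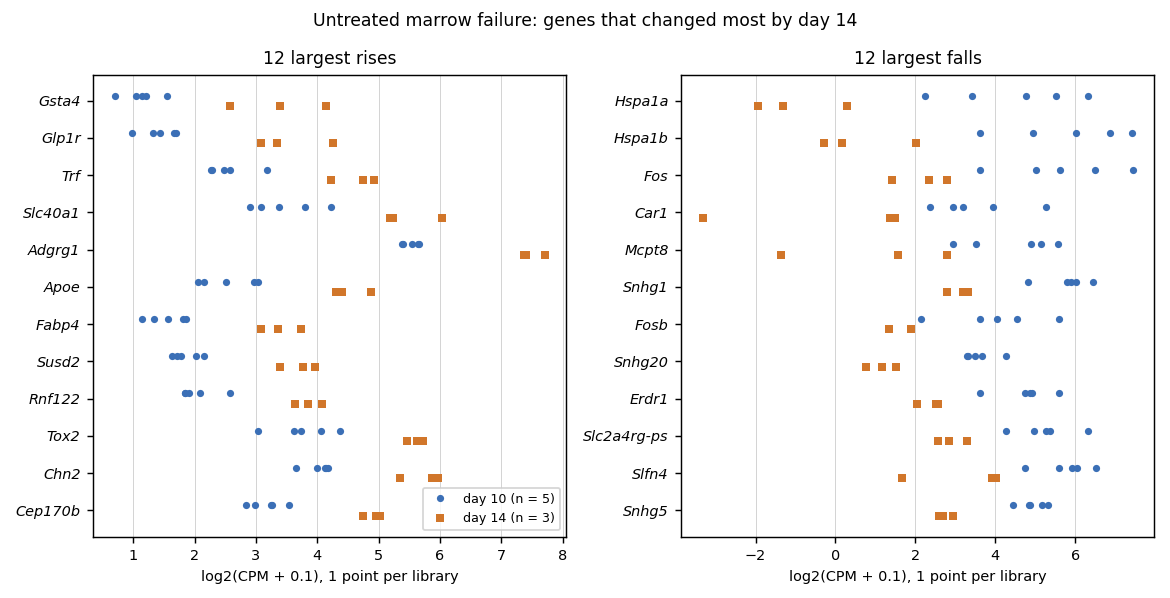
Expression of the 12 genes with the largest rise (left) and the 12 with the largest fall (right) from day 10 to day 14 in untreated marrow failure, as log2(CPM + 0.1) on the horizontal axis, with 1 circle for each of 5 day 10 libraries and 1 square for each of 3 day 14 libraries. The groups do not overlap for any of these 24 genes, by the rule that chose them. The day 10 values of falling genes such as Hspa1a, Hspa1b, Fos, Fosb, Car1 and Mcpt8 are spread far more widely than those of the rising genes.

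The 12 largest falls were Hspa1a, Hspa1b, Fos, Car1, Mcpt8, Snhg1, Fosb, Snhg20, Erdr1, Slc2a4rg-ps, Slfn4 and Snhg5, from log2 -5.99 to -2.23. Car1, a carbonic anhydrase of red cell precursors, had 15.3, 7.61, 5.02, 9.02 and 38.7 CPM at day 10 and 0, 2.705 and 2.47 CPM at day 14 (log2 -3.13 ± 0.90 (SE), adjusted p = 0.0163). Mcpt8, a basophil protease, had 47.2, 29.5, 11.3, 7.62 and 35.2 CPM at day 10 and 0.291, 2.85 and 6.88 CPM at day 14 (log2 -2.95 ± 0.76 (SE), adjusted p = 0.00960). Car1 was highest in day 10 replicate 5 and Mcpt8 in replicate 1. The call of Car1 was lost with limma voom (0.0578) and in the 8 untreated libraries fitted alone (0.0881), and that of Mcpt8 without day 10 replicates 1 to 3 together (0.0585) and in the 8 untreated libraries fitted alone (0.0730). Of 13 tested erythroid markers 11 fell (against 20.9% of all genes), with a sum of 119 to 284 CPM at day 10 and 25.2 to 59.4 CPM at day 14. The largest member of this sum was Tfrc, the transferrin receptor, at 60.2 to 102 CPM at day 10 and 12.5 to 33.9 CPM at day 14. The fall of the sum is thus in large part that of Tfrc. Of 15 tested mast cell, basophil and eosinophil markers 8 fell (against 20.9%), with sums that overlapped, at 45.3 to 251 CPM at day 10 and 29.8 to 185 CPM at day 14, and 1 of them that did not fall, Hdc, was at 38.1 CPM at day 10 and 83.4 CPM at day 14 as group means. Snhg1 (chr19:8723475-8726443, plus strand), a long RNA that hosts small nucleolar RNAs, had 64.3, 59.1, 87.3, 55.5 and 28.02 CPM at day 10 and 8.97, 9.801 and 6.81 CPM at day 14. Its lowest day 10 library, replicate 5, still lay well above every day 14 library (log2 -2.79 ± 0.30 (SE), adjusted p = 2.22e-05).

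Genes of the T cell receptor complex and of its signal chain rose far more often than they fell. Of 36 members tested, 19 rose (52.8%, against 17.6% of all genes) and 1 fell (2.78%, against 20.9%). The median over T cell receptor genes was 0.28, against -0.045 over all genes. Cd3e (chr9:44998740-45009627, minus strand), a chain of the CD3 complex, had 912, 1018, 811, 1126 and 934 CPM at day 10 and 1661, 1688 and 1569 CPM at day 14, so that each day 14 library lay above each day 10 library (log2 0.77 ± 0.12 (SE), adjusted p = 0.000124). Cd3g rose from 1339 to 1876 CPM (log2 0.49, adjusted p = 0.00269). The smaller changes of Cd247 (log2 0.29, adjusted p = 0.0251), the zeta chain, of Cd3d (0.28, adjusted p = 0.0485) and of the coreceptor chain Cd8b1 (0.42, adjusted p = 0.00918) depended on which libraries were kept. For Cd8a, at 719.8 ± 73.4 and 832 ± 131 CPM, the difference missed the threshold (log2 0.21, adjusted p = 0.172).

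Downstream, Rasgrp1, which loads the GTPase Ras after receptor engagement, had 63.1, 67.8, 80.998, 83.2 and 67.9 CPM at day 10 and 157, 159.9 and 110.0 CPM at day 14 (log2 0.97 ± 0.12 (SE), adjusted p = 1.65e-05). The phospholipase Plcg1 rose from 46.7 to 72.7 CPM (log2 0.64, adjusted p = 6.17e-05), the kinase Zap70 from 262 to 326 CPM (0.32, adjusted p = 0.00322) and the adaptor Lcp2 from 454 to 590.0 CPM (0.38, adjusted p = 0.000612). The kinase Lck (log2 0.34, adjusted p = 0.0150) lost its call without day 14 replicate 1 (adjusted p = 0.0788), without day 10 replicates 1 to 3 together (0.188) and with the monocyte and macrophage markers as a covariate (0.0742). Ubash3a, a brake on receptor signalling, rose as well, from 102 to 164 CPM (log2 0.69, adjusted p = 1.14e-05). The only member that fell was Malt1, a protease of the NF-kappaB branch (log2 -0.38, adjusted p = 0.0197). The adaptor Lat did not pass (423 ± 23.3 and 412 ± 51.2 CPM). The calls of Cd247 were lost without day 10 replicate 3 or day 14 replicate 1 or 2 (adjusted p 0.0609 to 0.108), without day 10 replicates 1 to 3 together (0.152) and with Rn45s as a covariate (0.0527), those of Cd3d in 6 of the 8 fits that left out 1 untreated library, and that of Cd8b1 without day 14 replicate 1 (adjusted p = 0.0754) and without day 10 replicates 1 to 3 together (0.159). Without day 14 replicate 1, 12 members rose in place of 19, where 2227 of all 15723 genes rose. Without day 10 replicates 1 to 3 together 6 rose and 0 fell, where 1193 and 1266 of all 14559 genes did.

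Receptor chains for interleukin-2 moved in opposite directions. Il2ra, the high-affinity chain of activated T cells, had 34.7, 31.4, 49.6, 26.5 and 39.9 CPM at day 10 and 16.5, 11.1 and 12.5 CPM at day 14. All 3 day 14 libraries lay below the lowest at day 10 (log2 -1.44 ± 0.26 (SE), adjusted p = 0.000850). Il2rb (chr15:78479256-78495271, minus strand), the chain shared with interleukin-15, had 965, 996, 1119, 1174 and 1149 CPM at day 10 and 1718, 1703 and 1904 CPM at day 14, and here all 3 day 14 libraries lay above (log2 0.72 ± 0.14 (SE), adjusted p = 0.000630). The common gamma chain Il2rg rose from 1009 to 1318 CPM (log2 0.39, adjusted p = 0.00701). The call of Il2rg was lost without day 14 replicate 1 (adjusted p = 0.0617) and without day 10 replicates 1 to 3 together (0.119).

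Among the wider group of cytokine receptors, JAK kinases and STAT factors more members rose than fell. Of 42 members tested, 18 rose (42.9%, against 17.6% of all genes) and 7 fell (16.7%, against 20.9%). The median over these cytokine signalling genes was 0.22, against -0.045 over all genes. Jak3, the kinase of the common gamma chain, had 136, 145, 147, 151 and 169.5 CPM at day 10 and 258, 253 and 237 CPM at day 14 (log2 0.73 ± 0.0857 (SE), adjusted p = 1.12e-05). Jak1 rose from 692 to 1002 CPM (log2 0.53, adjusted p = 0.000297). Jak2 did not pass (123 ± 5.22 and 122 ± 7.71 CPM). Stat5b, the factor these receptors activate, rose from 115 to 157 CPM (log2 0.45, adjusted p = 9.12e-05). Stat3 rose from 417 to 543 CPM (log2 0.38, adjusted p = 0.00722), without overlap between the groups, but not without day 14 replicate 3 (adjusted p = 0.0735). Pias1, an inhibitor of STAT factors, rose from 77.5 to 118 CPM (log2 0.60, adjusted p = 1.12e-05). The survival kinases Pim1 and Pim2, both known targets of STAT5, went apart. Pim2 had 57.6, 55.2, 42.8, 58.4 and 48.3 CPM at day 10 and 182, 131 and 125 CPM at day 14 (log2 1.48 ± 0.12 (SE), adjusted p = 4.48e-07). Pim1 fell from 88.9 to 57.2 CPM (log2 -0.64, adjusted p = 0.00270). Il18r1, a receptor chain for interleukin-18, fell from 152 to 71.4 CPM (log2 -1.09, adjusted p = 0.000437). Il12rb2, a receptor chain for interleukin-12, fell from 22.2 to 11.1 CPM (log2 -1.001, adjusted p = 0.000945). Il18rap, the other interleukin-18 receptor chain (182 ± 25.6 and 151 ± 12.02 CPM), Il7r (26.7 ± 6.18 and 38.7 ± 12.1 CPM), Socs1 (37.9 ± 5.76 and 39.6 ± 5.06 CPM) and Socs3 (37.2 ± 16.6 and 28.6 ± 2.25 CPM) did not pass. In the group, 9 rose and 5 fell without day 10 replicates 1 to 3.

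The cytotoxic genes split by member. Of 24 members tested, 6 rose (25.000%, against 17.6% of all genes) and 7 fell (29.2%, against 20.9%). The median over cytotoxic genes was 0.16, against -0.045 over all genes. Gzmb (chr14:56258838-56262260, minus strand), granzyme B, had 1205, 1226, 1182, 1040.2 and 1112 CPM at day 10 and 669, 649 and 547 CPM at day 14. The 5 day 10 libraries lay close together and each was above every day 14 library (log2 -0.89 ± 0.14 (SE), adjusted p = 0.000159). The protease inhibitors Serpinb9, which protects cells from granzyme B, and Serpinb6b fell as well, from 214 to 123 CPM (log2 -0.79, adjusted p = 9.74e-05) and from 199 to 126 CPM (-0.66, adjusted p = 0.000831). Nkg7 (chr7:43437073-43438249, plus strand), a granule membrane protein, went the other way, with 3998, 4047, 2992, 3884 and 3766 CPM at day 10 and 6587, 6124 and 5557 CPM at day 14 and its lowest value in day 10 replicate 3 (log2 0.70 ± 0.12 (SE), adjusted p = 0.000188). Gzmk, granzyme K, rose from 226 to 352 CPM (log2 0.64, adjusted p = 0.00646). The call of Gzmk was lost without day 10 replicates 1 to 3 together (0.0590). Prf1, the pore protein perforin, had 375, 391, 359, 305 and 427 CPM at day 10 and 468, 451 and 645 CPM at day 14, and its call (log2 0.49 ± 0.16 (SE), adjusted p = 0.0200) was lost without day 14 replicate 3 (adjusted p = 0.158), without day 10 replicates 1 to 3 together (0.137) and with Rn45s as a covariate (0.0617). Gzma did not pass (265 ± 61.3 and 221 ± 53.2 CPM). The 3 members that fell at least 2-fold were Gzmc (from 9.84 to 2.08 CPM), Gzmf (from 0.614 to 0.132 CPM) and Serpinb9b (from 11.1 to 4.96 CPM), named after their values were seen, which share sequence with close relatives, so that reads could be split between copies. Leaving out day 10 replicates 1 to 3 changed the counts, and then 1 rose and 4 fell.

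Ccl5 (chr11:83525778-83530518, minus strand), a chemokine stored and released by effector CD8 T cells, had 4005, 4248, 2282, 3767 and 3801 CPM at day 10 and 11619.5, 12132 and 9971 CPM at day 14. Every day 14 library lay far above the highest at day 10, and day 10 replicate 3 was the lowest of all (log2 1.63 ± 0.17 (SE), adjusted p = 4.41e-06). Of 22 members tested, 6 rose (27.3%, against 17.6% of all genes) and 5 fell (22.7%, against 20.9%). The median over cytokines and death ligands was 0.095, against -0.045 over all genes. Fasl, the Fas ligand that triggers death receptors, had 109.7, 113, 115, 114 and 119 CPM at day 10 and 213, 178 and 187 CPM at day 14 (log2 0.76 ± 0.0927 (SE), adjusted p = 1.60e-05). The groups did not overlap. Il16, a chemoattractant for CD4 cells, rose from 169.9 to 268 CPM (log2 0.66, adjusted p = 3.94e-05) and Tgfb1, an immunosuppressive cytokine, from 66.1 to 88.3 CPM (0.42, adjusted p = 0.000353).

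Ifng (chr10:118441046-118445892, plus strand), interferon-gamma, had 511, 362, 309, 248 and 257 CPM at day 10 and 184, 203 and 195 CPM at day 14. Day 10 replicate 1 was the highest, and replicates 4 and 5 were nearest to day 14 (log2 -0.80 ± 0.25 (SE), adjusted p = 0.0225). The call was lost without day 14 replicate 1 or 2 or 3 (adjusted p 0.0583 to 0.0716), without day 10 replicates 1 to 3 together (0.266) and with the monocyte and macrophage markers as a covariate (0.0567). Tnf, at 8.28, 5.76, 7.13, 4.26 and 1.87 CPM at day 10 and 1.06, 1.89 and 1.39 CPM at day 14, fell also (log2 -1.91, adjusted p = 0.00413), but day 10 replicate 5 overlapped the day 14 libraries and the call was lost without day 10 replicates 1 to 3 together (0.115). Xcl1, a chemokine for cross-presenting dendritic cells, had 80.1, 73.9, 92.8, 92.4 and 75.5 CPM at day 10 and 27.3, 32.5 and 23.95 CPM at day 14, well apart in all libraries (log2 -1.57 ± 0.30 (SE), adjusted p = 0.00135). The chemokines Ccl3 (372 ± 57.3 and 373 ± 58.1 CPM) and Ccl4 (858 ± 142 and 827 ± 142 CPM) did not pass. Between 2 and 6 members of this group fell when 1 library was left out, and without day 10 replicates 1 to 3 together, 4 rose and 1 fell.

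**Figure D2:**
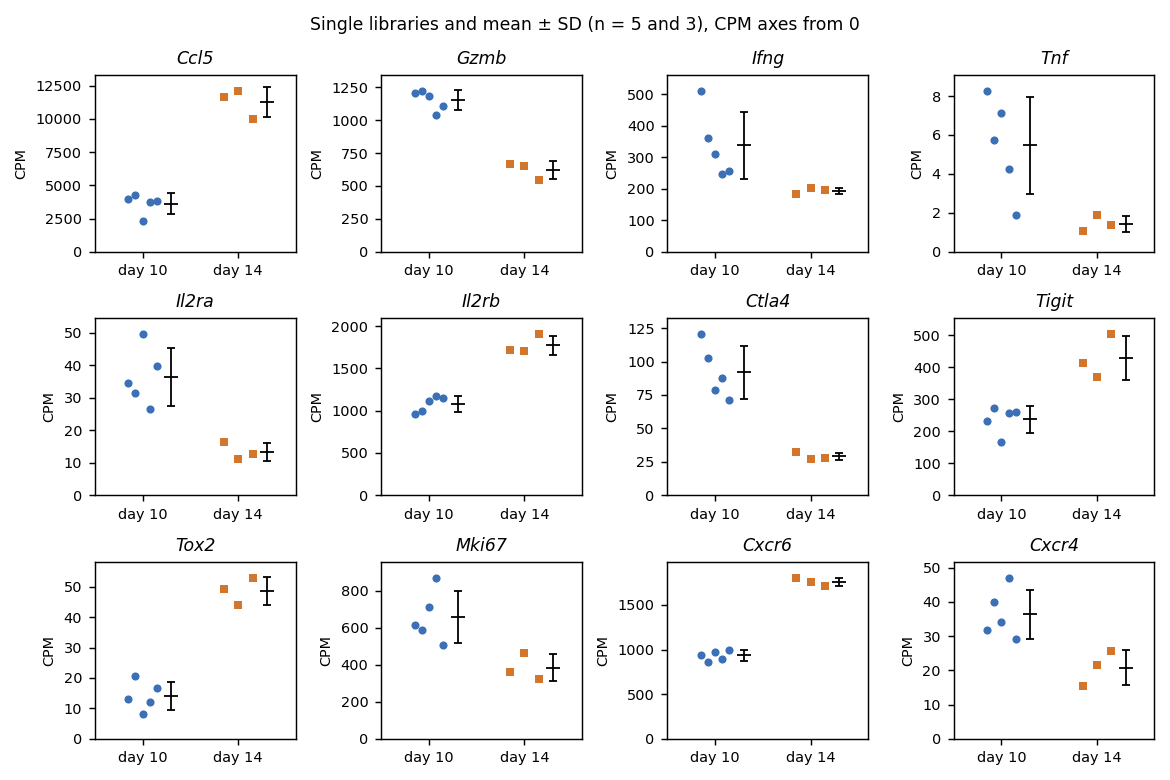
CPM of 12 genes in each untreated library at day 10 (circles, n = 5) and day 14 (squares, n = 3), with the mean and SD beside them as a dash with bars and every vertical axis starting at 0. Ccl5, Il2rb, Tigit, Tox2 and Cxcr6 lie higher at day 14 in every library, Gzmb, Ifng, Il2ra, Ctla4, Mki67 and Cxcr4 lie lower in every library, and Tnf overlaps in day 10 replicate 5.

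Few of the factors that set effector identity passed the test. Of 33 members tested, 5 rose (15.2%, against 17.6% of all genes) and 2 fell (6.06%, against 20.9%). The median over effector factors was 0.049, against -0.045 over all genes. Eomes, a T-box factor of effector and exhausted cells, had 153, 168, 146, 195 and 138 CPM at day 10 and 201, 237 and 196 CPM at day 14 (log2 0.40 ± 0.10 (SE), adjusted p = 0.00615). The call of Eomes was lost without day 10 replicates 1 to 3 together (0.111). Ikzf3 (Aiolos), a lymphoid zinc finger factor, rose from 326 to 469.8 CPM (log2 0.53, adjusted p = 0.000242). Prdm1 (Blimp-1), which drives terminal effector differentiation, rose from 73.7 to 97.7 CPM (0.41, adjusted p = 0.0102). The call of Prdm1 was lost without day 14 replicate 2 (adjusted p = 0.0586) and without day 10 replicates 1 to 3 together (0.0604). Tbx21 (T-bet), the master factor of interferon-gamma-producing cells, missed the threshold at 176 ± 20.2 and 182 ± 33.5 CPM (log2 0.045, adjusted p = 0.777). Neither did Zeb2 (18.3 ± 3.02 and 18.6 ± 1.498 CPM), Id2 (550.4 ± 106 and 660.0 ± 82.2 CPM), Irf4 (23.99 ± 2.48 and 22.5 ± 0.758 CPM) or Klrg1 (57.8 ± 7.65 and 59.8 ± 18.9 CPM), a receptor of short-lived effector cells. Without day 10 replicates 1 to 3, 1 rose and 2 fell. The only 2 members that fell were the cytokine receptors Il18r1 and Il12rb2 given above, and the falls numbered 6 without day 10 replicate 5 and 5 without replicates 4 and 5. The rises numbered 3 without day 14 replicate 2.

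Inhibitory receptors and exhaustion-associated factors changed in both directions. Of 30 members tested, 13 rose (43.3%, against 17.6% of all genes) and 9 fell (30.000%, against 20.9%). The median over inhibitory genes was 0.20, against -0.045 over all genes. Tigit, an inhibitory receptor for nectin-like ligands, had 232, 273, 166, 256 and 260.1 CPM at day 10 and 412, 370.0 and 504 CPM at day 14, all day 14 libraries above all day 10 libraries (log2 0.85 ± 0.16 (SE), adjusted p = 0.000940). Lag3, which binds MHC class II, had 189, 203, 180.4, 178 and 214 CPM at day 10 and 269, 293 and 386 CPM at day 14 (log2 0.71 ± 0.13 (SE), adjusted p = 0.000632). Cd244 (2B4) had 20.7, 17.9, 25.3, 28.2 and 20.1 CPM at day 10 and 60.8, 42.4 and 52.5 CPM at day 14 (log2 1.21 ± 0.16 (SE), adjusted p = 4.37e-05). The ectoenzymes Cd38 and Entpd1 (CD39) rose from 87.1 to 151 CPM (log2 0.79, adjusted p = 5.22e-06) and from 104 to 158 CPM (0.60, adjusted p = 0.000566). Cd101 rose from 15.7 to 28.04 CPM (log2 0.84, adjusted p = 1.19e-05). Tox, the factor required for exhausted T cells to persist, rose also, from 586 to 743 CPM (log2 0.34, adjusted p = 0.00676). Nfatc1, a calcium-driven factor, rose from 338 to 525 CPM (log2 0.63, adjusted p = 8.91e-06).

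Ctla4 (chr1:60887000-60915832, plus strand), which competes with CD28 for its ligands, had 120.4, 102, 78.7, 87.5 and 70.9 CPM at day 10 and 32.2, 27.2 and 28.1 CPM at day 14. It went against the receptors above, with every day 14 library far below the lowest day 10 library (log2 -1.66 ± 0.18 (SE), adjusted p = 9.65e-06). Nr4a3, an orphan nuclear receptor switched on by T cell receptor signals, fell from 14.8 to 5.55 CPM (log2 -1.41, adjusted p = 5.30e-05). The ligand Cd274 (PD-L1) fell from 27.2 to 18.5 CPM (-0.55, adjusted p = 0.00556). Pdcd1 (PD-1) had 579, 627, 575, 665 and 723 CPM at day 10 and 745, 745 and 759 CPM at day 14. Its groups did not overlap but the difference missed the threshold (log2 0.24, adjusted p = 0.108), and it passed in the 8 untreated libraries fitted alone and without day 10 replicates 4 and 5. Havcr2 (TIM-3), at 176 ± 11.9 and 179 ± 23.02 CPM, did not pass. Without day 10 replicates 1 to 3 together, 12 rose and 3 fell. Without day 14 replicate 2 or 3, 5 members fell in place of 9.

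Most markers of naive and memory T cells did not pass the test. Of 32 members tested, 7 rose (21.9%, against 17.6% of all genes) and 2 fell (6.25%, against 20.9%). The median over naive and memory genes was 0.10, against -0.045 over all genes. Tcf7 (83.98 ± 12.04 and 70.9 ± 13.8 CPM) and Lef1 (92.6 ± 6.797 and 92.5 ± 5.66 CPM), factors of stem-like T cells, Ccr7 (6.75 ± 3.08 and 4.91 ± 0.341 CPM) and Slamf6 (78.9 ± 7.27 and 68.1 ± 11.3 CPM) did not pass. The survival gene Bcl2 (chr1:106538178-106714274, minus strand) had 84.4, 95.2, 85.5, 88.5 and 67.6 CPM at day 10 and 226, 143 and 136 CPM at day 14. All day 14 libraries lay above all day 10 libraries (log2 1.002 ± 0.15 (SE), adjusted p = 0.000129). The cytoskeletal gene Actn1 rose from 51.7 to 89.7 CPM (log2 0.80, adjusted p = 0.000248) and Il6st, the shared chain of the interleukin-6 receptor family, from 37.8 to 56.98 CPM (0.59, adjusted p = 0.000250). The chromatin organiser Satb1 fell from 90.8 to 53.04 CPM (-0.78, adjusted p = 0.000745). Without day 10 replicates 1 to 3, 4 rose and 2 fell in this list.

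Of the genes for migration, few fell. Of 37 members tested, 8 rose (21.6%, against 17.6% of all genes) and 4 fell (10.8%, against 20.9%). The median over homing genes was 0.23, against -0.045 over all genes. Cxcr6 (chr9:123806475-123811760, plus strand), a receptor that holds T cells in tissues, had 942, 856, 977, 895 and 997 CPM at day 10 and 1805, 1752 and 1715 CPM at day 14, without overlap (log2 0.91 ± 0.0911 (SE), adjusted p = 3.08e-06). The integrin chain Itgb2 rose from 695 to 1056 CPM (log2 0.60, adjusted p = 5.08e-05). Selplg, the P-selectin ligand, rose from 660.2 to 982 CPM (log2 0.57, adjusted p = 0.000255). Cxcr3, the receptor for the interferon-induced chemokines, rose from 159 to 272 CPM (log2 0.77, adjusted p = 0.00251) with overlapping groups. The call of Cxcr3 was lost without day 10 replicates 1 to 3 together (0.0883). Cxcr4, which retains cells in marrow, had 31.7, 40.02, 34.001, 47.05 and 29.2 CPM at day 10 and 15.4, 21.5 and 25.6 CPM at day 14 (log2 -0.81 ± 0.19 (SE), adjusted p = 0.00391), all day 14 libraries being lower. Gcnt1, an enzyme that builds selectin ligands, fell from 24.9 to 12.2 CPM (log2 -1.03, adjusted p = 5.42e-06). S1pr1 (69.8 ± 15.3 and 81.8 ± 23.8 CPM) and Cx3cr1 (67.7 ± 12.8 and 83.5 ± 3.15 CPM) did not pass. Of the whole group, 5 rose and 4 fell without day 10 replicates 1 to 3.

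Many cell division genes fell. Of 70 members tested, 1 rose (1.43%, against 17.6% of all genes) and 42 fell (60.000%, against 20.9%). The median over mitosis genes was -0.30, against -0.045 over all genes. Mki67 (chr7:135689784-135716361, minus strand), the proliferation marker Ki-67, had 613, 589, 713, 870.0 and 506 CPM at day 10 and 363, 463 and 325 CPM at day 14. The highest library was day 10 replicate 4, and no day 14 library reached the lowest at day 10 (log2 -0.78 ± 0.15 (SE), adjusted p = 0.000820). Cdk1, the kinase that starts mitosis, had 161, 160.1, 205, 219 and 169 CPM at day 10 and 121, 129.9 and 117 CPM at day 14 (log2 -0.58 ± 0.12 (SE), adjusted p = 0.00116). Among kinetochore genes, Cenpe fell from 169 to 89.8 CPM (log2 -0.91, adjusted p = 7.00e-05), Cenph from 46.7 to 23.3 CPM (-0.99995, adjusted p = 1.28e-05) and Ska1 from 44.3 to 23.3 CPM (-0.93, adjusted p = 1.53e-05). Ccnb1 (131 ± 20.1 and 115 ± 7.41 CPM) and Top2a (604 ± 96.5 and 491 ± 70.7 CPM) did not pass, although Top2a did without day 10 replicate 5. The only member that rose was Ccnd2, a G1 cyclin, from 142 to 236 CPM (log2 0.73, adjusted p = 4.15e-05).

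The 300 bases from 250 before to 50 after the RefSeq start (GRCm38.p6) of Mki67 (chr7:135716330-135716629, minus strand) and Cdk1 (chr10:69352863-69353162, minus strand) are shown because these genes belong to the list with the largest share of falls among the 22 functional lists, with capitals marking the motif TTTGAA, the core of the cell cycle genes homology region, on either strand. Each window holds 2 matches.
Mki67: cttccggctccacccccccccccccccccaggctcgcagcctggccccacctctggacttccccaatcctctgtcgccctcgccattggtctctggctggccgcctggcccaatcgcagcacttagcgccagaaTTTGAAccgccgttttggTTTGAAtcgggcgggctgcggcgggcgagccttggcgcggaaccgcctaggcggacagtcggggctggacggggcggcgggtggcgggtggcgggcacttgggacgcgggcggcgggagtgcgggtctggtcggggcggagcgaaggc
Cdk1: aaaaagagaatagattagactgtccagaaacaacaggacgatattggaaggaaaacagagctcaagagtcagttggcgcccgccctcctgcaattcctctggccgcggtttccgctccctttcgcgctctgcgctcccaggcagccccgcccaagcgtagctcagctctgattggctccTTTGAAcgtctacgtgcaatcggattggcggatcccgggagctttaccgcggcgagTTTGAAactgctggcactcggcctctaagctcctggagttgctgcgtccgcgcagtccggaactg
Of 57 mitosis members with a window, 38 (66.7%) hold this motif, against 14.9% of the tested genes with one and 17.9% of all 32851 windows. It was as frequent in members that fell (22 of 33) as in members that did not pass (16 of 24).

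Many DNA replication genes fell too. Of 59 members tested, 2 rose (3.39%, against 17.6% of all genes) and 30 fell (50.8%, against 20.9%). The median over replication genes was -0.26, against -0.045 over all genes. Gins1, a part of the replicative helicase, had 32.9, 33.04, 37.6, 36.3 and 31.9 CPM at day 10 and 19.7, 19.8 and 18.2 CPM at day 14 (log2 -0.84 ± 0.0889 (SE), adjusted p = 4.80e-06). The groups did not overlap. Ccne1, the cyclin of S phase entry, fell from 74.7 to 45.5 CPM (log2 -0.72, adjusted p = 1.15e-05), the clamp loader Rfc3 from 70.9 to 48.3 CPM (-0.55, adjusted p = 6.81e-05) and the clamp Pcna from 353 to 258 CPM (-0.45, adjusted p = 0.00233). Mcm2 did not pass (231 ± 22.1 and 252 ± 8.45 CPM). The motif TTTNNCGC, a core of E2F sites, searched on both strands, is in 22 of 48 replication members with a window (45.8%), against 9.15% of tested genes with one. With day 10 replicates 1 to 3 left out, 1 rose and 46 fell in the mitosis group and 0 rose and 27 fell in the replication group, and without replicates 4 and 5 the falls of the mitosis group numbered 26. With the monocyte and macrophage markers as a covariate, 1 rose and 19 fell in the mitosis group and 3 rose and 16 fell in the replication group, and Pcna lost its call. Hmgb2, a chromatin protein of dividing cells, fell from 1987 to 1219 CPM (log2 -0.70, adjusted p = 0.000590).

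**Figure D3:**
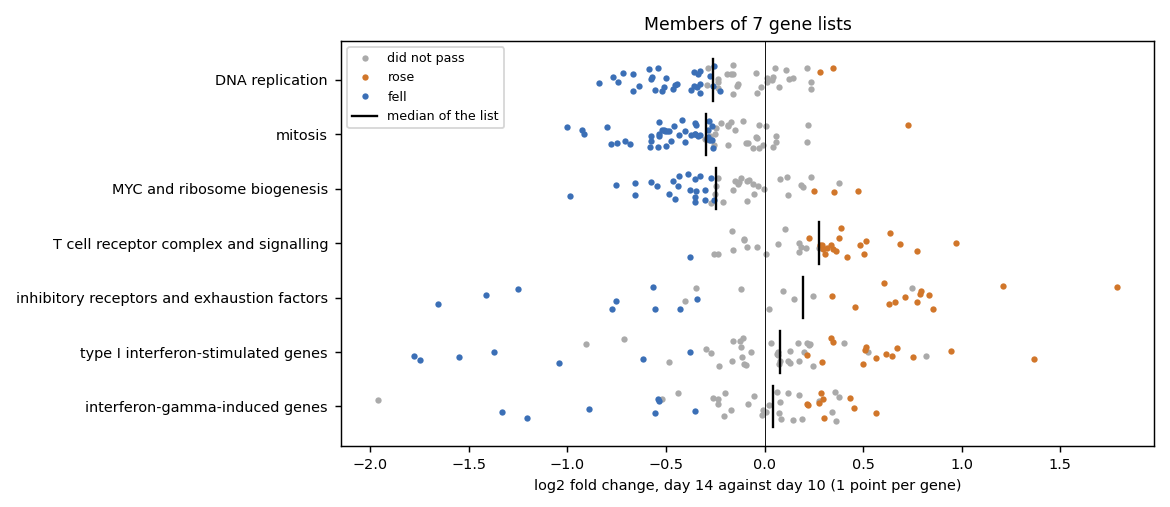
Log2 fold change from day 10 to day 14 of every tested member of 7 gene lists, 1 point per gene, coloured by whether it rose, fell or did not pass, with a vertical bar at each list's median. Nearly all called members of the mitosis and replication lists lie left of 0, those of the T cell receptor list lie right of 0 except Malt1, and inhibitory receptors and interferon genes lie on both sides.

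Many genes for building ribosomes fell. Of 49 members tested, 3 rose (6.12%, against 17.6% of all genes) and 22 fell (44.9%, against 20.9%). The median over ribosome biogenesis genes was -0.25, against -0.045 over all genes. Ncl, nucleolin, had 1069, 1137, 1177, 1081 and 926 CPM at day 10 and 718, 694 and 641 CPM at day 14 (log2 -0.65 ± 0.10 (SE), adjusted p = 0.000123). The groups did not overlap. Npm1, which assembles ribosomal particles, fell from 1611 to 1102 CPM (log2 -0.55, adjusted p = 0.00167), Nop56 of the small nucleolar particles from 205 to 138 CPM (-0.57, adjusted p = 4.03e-05) and Gnl3, nucleostemin, from 71.6 to 36.1 CPM (-0.99, adjusted p = 1.96e-05). Myc itself had 123 ± 15.2 and 104 ± 3.57 CPM and missed the threshold (log2 -0.24, adjusted p = 0.0674). With day 10 replicates 1 to 3 left out, 0 rose and 16 fell, and with the monocyte and macrophage markers as a covariate, 4 rose and 9 fell. Of 78 ribosomal proteins tested, 7 rose (8.97%, against 17.6% of all genes) and 16 fell (20.5%, near the 20.9% of all genes), with a median log2 of -0.095. Rpl5 fell from 932 to 677 CPM (log2 -0.46, adjusted p = 0.00161). Their falls numbered from 5 without day 14 replicate 3 to 26 without day 10 replicate 5, and their rises from 3 to 7 when 1 library was left out. With day 10 replicates 1 to 3 left out 1 rose and 2 fell, and with the monocyte and macrophage markers as a covariate 8 rose and 3 fell. Many of these genes have near-identical pseudogene copies that can share reads.

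Glycolysis genes changed in both directions, near the background. Of 31 members tested, 4 rose (12.9%, against 17.6% of all genes) and 8 fell (25.8%, against 20.9%). The median over glycolysis genes was -0.034, against -0.045 over all genes. The lactate exporter Slc16a1 fell from 57.4 to 35.5 CPM (log2 -0.69, adjusted p = 0.000260), and of the glycolytic enzymes Pgk1 fell from 399 to 296 CPM (-0.43, adjusted p = 0.00445) and Tpi1 from 288 to 199.6 CPM (-0.53, adjusted p = 0.00477). Ldha, lactate dehydrogenase A, fell also (log2 -0.33, adjusted p = 0.0218) but not without day 14 replicate 1 or 2 (adjusted p 0.0743 to 0.0787), without day 10 replicates 1 to 3 together (0.118), without day 10 replicates 4 and 5 (0.0525) and with the monocyte and macrophage markers as a covariate (0.375). Of the 2 hexokinases, Hk1 had 163, 174, 174, 169 and 226 CPM at day 10 and 267, 270.1 and 282 CPM at day 14 (log2 0.59 ± 0.0910 (SE), adjusted p = 0.000115), without overlap, while Hk2 fell from 23.9 to 18.2 CPM (log2 -0.40, adjusted p = 0.0114). The call of Hk2 was lost without day 14 replicate 1 (adjusted p = 0.0924) and without day 10 replicates 1 to 3 together (0.196). The glucose carrier Slc2a1 fell from 47.2 to 37.8 CPM (log2 -0.32, adjusted p = 0.0102). The call of Slc2a1 was lost without day 14 replicate 2 (adjusted p = 0.0642) and with the monocyte and macrophage markers as a covariate (0.0878). Gapdh (1210.0 ± 126 and 1234 ± 74.7 CPM) and Pkm (1568 ± 229 and 1664 ± 262 CPM) did not pass. With the monocyte and macrophage markers as a covariate 2 rose and 2 fell, and Pgk1 and Tpi1 were not among them. The counts were 1 rose and 4 fell without day 10 replicates 1 to 3. Without day 14 replicate 1, 6 rose and 5 fell with a median log2 of 0.050, and without 1 library the rises ran from 1, without day 14 replicate 3, to 6.

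For the subunits of oxidative phosphorylation, 5 of 75 rose (6.67%, against 17.6% of all genes) and 3 fell (4%, against 20.9%), with a median log2 of 0.052. With day 10 replicates 1 to 3 left out, edgeR called 0 of them, with 2 at an unadjusted p under 0.05. Without 1 library the rises ran from 1, without day 10 replicate 3 or day 14 replicate 1 or 3, to 9, without day 10 replicate 5, and the falls from 0 to 4. When only genes at a mean of 5 CPM or more on either day were tested, 2 of 75 rose and 11 fell, with a median log2 of -0.0018. Of all 9659 genes in that refit 2065 rose and 2265 fell. In the absence of day 10 replicates 4 and 5, 12 rose and 0 fell, and with the monocyte and macrophage markers as a covariate 4 rose and 0 fell. Of 34 genes of cholesterol handling, 9 rose (26.5%, against 17.6% of all genes) and 1 fell (2.94%, against 20.9%), with a median log2 of 0.12. Srebf1, a master factor of lipid synthesis, rose from 52.2 to 72.1 CPM (log2 0.47, adjusted p = 4.65e-05), its escort protein Scap from 61.9 to 83.8 CPM (0.44, adjusted p = 0.000365) and the exporter Abcg1 from 50.7 to 82.9 CPM (0.71, adjusted p = 0.00121). In this list 4 rose and 0 fell without day 10 replicates 1 to 3, and 5 rose and 0 fell with the monocyte and macrophage markers as a covariate.

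Interferon-stimulated genes went both ways. Of 55 members tested, 14 rose (25.5%, against 17.6% of all genes) and 7 fell (12.7%, against 20.9%). The median over the interferon list was 0.076, against -0.045 over all genes. Lgals3bp, a secreted glycoprotein, had 168, 192, 133, 155 and 194 CPM at day 10 and 296, 267 and 243 CPM at day 14 (log2 0.67 ± 0.12 (SE), adjusted p = 0.000313). Ddx58 (RIG-I), a sensor of viral RNA, rose from 65.9 to 92.9 CPM (log2 0.50, adjusted p = 0.000505). Ifit1, which blocks translation of foreign RNA, had 42.9, 34.6, 24.4, 25.5 and 32.3 CPM at day 10 and 59.9, 57.2 and 44.1 CPM at day 14. Its groups did not overlap (log2 0.75 ± 0.22 (SE), adjusted p = 0.0150), but the call was lost without day 14 replicate 1 or 2 (adjusted p 0.0532 to 0.0641), without day 10 replicates 4 and 5 (0.0626) and with the monocyte and macrophage markers as a covariate (0.155). Mx1, an antiviral GTPase, had 27.6, 25.5, 30.6, 22.5 and 13.5 CPM at day 10 and 8.6005, 8.31 and 4.04 CPM at day 14. It fell, with day 10 replicate 5 nearest to the day 14 libraries (log2 -1.78 ± 0.25 (SE), adjusted p = 0.000113). Oas1b, of the oligoadenylate synthetase family, fell from 8.405 to 3.24 CPM (log2 -1.37, adjusted p = 7.62e-05). Isg15 (85.3 ± 19.99 and 80.01 ± 8.61 CPM), Irf7 (76.3 ± 15.8 and 89.4 ± 3.94 CPM), Rsad2 (9.88 ± 3.32 and 13.02 ± 1.64 CPM) and Usp18 (38.98 ± 7.87 and 32.3 ± 3.63 CPM) did not pass. Without day 14 replicate 1 or 2, 9 members rose in place of 14, and without day 10 replicates 1 to 3 together 7 rose and 3 fell. With the monocyte and macrophage markers as a covariate, 4 rose and 8 fell.

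The Ifit1 window of 300 bases (RefSeq, GRCm38.p6, chr19:34640639-34640938, plus strand) is shown as an example of the list. Capitals mark its 2 matches to GAAA, 2 free bases and GAAA, the core of the interferon-stimulated response element, searched on both strands.
Ifit1: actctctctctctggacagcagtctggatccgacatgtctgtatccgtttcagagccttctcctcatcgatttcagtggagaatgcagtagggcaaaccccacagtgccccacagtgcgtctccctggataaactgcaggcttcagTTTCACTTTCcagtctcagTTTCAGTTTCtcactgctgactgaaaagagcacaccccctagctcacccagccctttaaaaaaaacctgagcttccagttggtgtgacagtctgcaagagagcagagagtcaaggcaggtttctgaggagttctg
This motif is in 20 of 39 members with a window (51.3%), against 3.93% of tested genes with one and 3.44% of all windows.

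Genes induced by interferon-gamma changed about as often as the background. Of 44 members tested, 9 rose (20.5%, against 17.6% of all genes) and 7 fell (15.9%, against 20.9%). The median over interferon-gamma targets was 0.043, against -0.045 over all genes. The chemokines Cxcl9 and Cxcl10, which attract cells with Cxcr3, had low levels that fell, Cxcl9 with 17.7, 10.4, 14.2, 10.6 and 11.8 CPM at day 10 and 5.85, 5.83 and 5.17 CPM at day 14 (log2 -1.20 ± 0.20 (SE), adjusted p = 0.000194) and Cxcl10 with 16.6, 8.04, 10.3, 8.38 and 7.14 CPM at day 10 and 4.18, 4.52 and 3.303 CPM at day 14 (log2 -1.33 ± 0.22 (SE), adjusted p = 0.000243). Irf1 fell from 230.1 to 180.2 CPM (log2 -0.35, adjusted p = 0.0160) and Gbp3, a guanylate-binding protein, from 105 to 72.1 CPM (-0.54, adjusted p = 0.000697). The groups of Irf1 overlapped. The call of Irf1 was lost without day 14 replicate 3 (adjusted p = 0.0879), without day 10 replicates 1 to 3 together (0.368) and with the monocyte and macrophage markers as a covariate (0.230). Tapbp, of the MHC class I loading complex, rose from 459 to 629.8 CPM (log2 0.46, adjusted p = 0.000526). Tap1 did not pass (456 ± 39.6 and 458 ± 21.4 CPM). Rises numbered 4 or 5 in place of 9 without day 14 replicate 1 or 2, and without day 10 replicates 1 to 3 together 4 rose and 3 fell. With the monocyte and macrophage markers as a covariate, 5 rose and 6 fell.

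The 3 largest falls named above belong to stress and immediate early genes. Of 46 members tested, 5 rose (10.9%, against 17.6% of all genes) and 15 fell (32.6%, against 20.9%). The median over stress and immediate early genes was -0.47, against -0.045 over all genes. Hspa1b (chr17:34956436-34959238, minus strand), an inducible HSP70 chaperone, had 172, 64.3, 30.8, 116 and 12.1 CPM at day 10 and 0.714, 3.95 and 1.02 CPM at day 14. The day 10 libraries ranged widely, highest in replicate 1 and lowest in replicate 5, yet all lay above all day 14 libraries (log2 -5.38 ± 1.05 (SE), adjusted p = 0.00189). Hspa1a had 80.1, 27.2, 10.6, 45.7 and 4.65 CPM at day 10 and 0.159, 1.12 and 0.300 CPM at day 14, in the same order of libraries (log2 -5.99 ± 1.23 (SE), adjusted p = 0.00265). Both genes code for nearly the same protein and can share reads, so their separate levels are uncertain.

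Their RefSeq start windows (GRCm38.p6, Hspa1a chr17:34972107-34972406, minus strand and Hspa1b chr17:34959189-34959488, minus strand) are shown because the copies are so alike, with capitals at the 4 of 300 positions where the 2 windows differ (98.7% identical).
Hspa1a: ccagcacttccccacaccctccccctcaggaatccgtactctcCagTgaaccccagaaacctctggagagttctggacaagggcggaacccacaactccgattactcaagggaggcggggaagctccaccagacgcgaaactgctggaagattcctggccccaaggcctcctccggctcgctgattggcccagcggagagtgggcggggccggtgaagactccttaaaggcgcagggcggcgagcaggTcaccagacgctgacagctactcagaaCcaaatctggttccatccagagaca
Hspa1b: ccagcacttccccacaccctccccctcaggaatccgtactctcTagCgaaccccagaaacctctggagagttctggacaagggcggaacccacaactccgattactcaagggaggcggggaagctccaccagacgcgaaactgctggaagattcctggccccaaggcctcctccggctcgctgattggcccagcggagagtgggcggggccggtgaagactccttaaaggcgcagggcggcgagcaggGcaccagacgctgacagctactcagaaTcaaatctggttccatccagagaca

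Fos (chr12:85473890-85477273, plus strand), a subunit of the AP-1 factor, had 174, 90.6, 32.5, 49.1 and 12.3 CPM at day 10 and 2.57, 6.77 and 4.94 CPM at day 14 (log2 -3.91 ± 1.14 (SE), adjusted p = 0.0178). It was highest in day 10 replicate 1 and lowest there in replicate 5, with no overlap with day 14. The call of Fos was lost without day 14 replicate 1 or 3 (adjusted p 0.0617 to 0.0680), without day 10 replicates 1 to 3 together (0.144) and with Rn45s as a covariate (0.0567). Jun, its partner, had 227, 118, 40.2, 80.3 and 27.8 CPM at day 10 and 26.01, 35.1 and 23.2 CPM at day 14. Its difference missed the threshold (log2 -1.81, adjusted p = 0.0767), except without day 10 replicate 5. Nfkbiz, an atypical inhibitor of NF-kappaB, had 73.9, 49.7, 62.5, 46.95 and 24.9 CPM at day 10 and 11.8, 14.8 and 11.5 CPM at day 14 (log2 -2.02 ± 0.33 (SE), adjusted p = 0.000493). The cytosolic chaperone Hsp90aa1 had 963, 944, 1129, 902 and 400.1 CPM at day 10 and 276, 323 and 226 CPM at day 14 (log2 -1.66 ± 0.25 (SE), adjusted p = 0.000188). In both, day 10 replicate 5 lay between the other day 10 libraries and day 14. Rela, an activating NF-kappaB subunit, rose from 92.5 to 125 CPM (log2 0.43, adjusted p = 4.99e-05), as did Dusp6, a phosphatase of ERK kinases, from 35.2 to 53.9 CPM (0.61, adjusted p = 0.000306). Egr1 did not pass (57.4 ± 11.6 and 52.4 ± 16.3 CPM). Of the stress and immediate early genes, 4 rose and 5 fell without day 10 replicates 1 to 3.

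In the group for stress of the endoplasmic reticulum and amino acid supply, 3 of 38 rose (7.89%, against 17.6% of all genes) and 9 fell (23.7%, near the 20.9% of all genes), with a median log2 of -0.096. Atf4, the factor that drives the amino acid response, had 162, 149.7, 167, 117 and 57.8 CPM at day 10 and 33.5, 38.2 and 33.2 CPM at day 14. Day 10 replicate 5 was the lowest of its group and still above day 14 (log2 -1.90 ± 0.26 (SE), adjusted p = 0.000124). Of its known targets, Mthfd2 fell from 113 to 89.7 CPM (log2 -0.34, adjusted p = 0.00217), Asns (31.8 ± 7.31 and 29.1 ± 4.29 CPM) and Ddit3 (14.5 ± 2.93 and 12.4 ± 0.609 CPM) did not pass, and Sesn2 rose from 5.99 to 9.71 CPM (0.70, adjusted p = 0.000914). The chaperone Hspa5 did not pass (1040.1 ± 78.2 and 1092 ± 66.5 CPM). In this group 1 rose and 7 fell without day 10 replicates 1 to 3, 1 rose without day 14 replicate 2, and 3 rose and 5 fell with the monocyte and macrophage markers as a covariate.

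**Figure D4:**
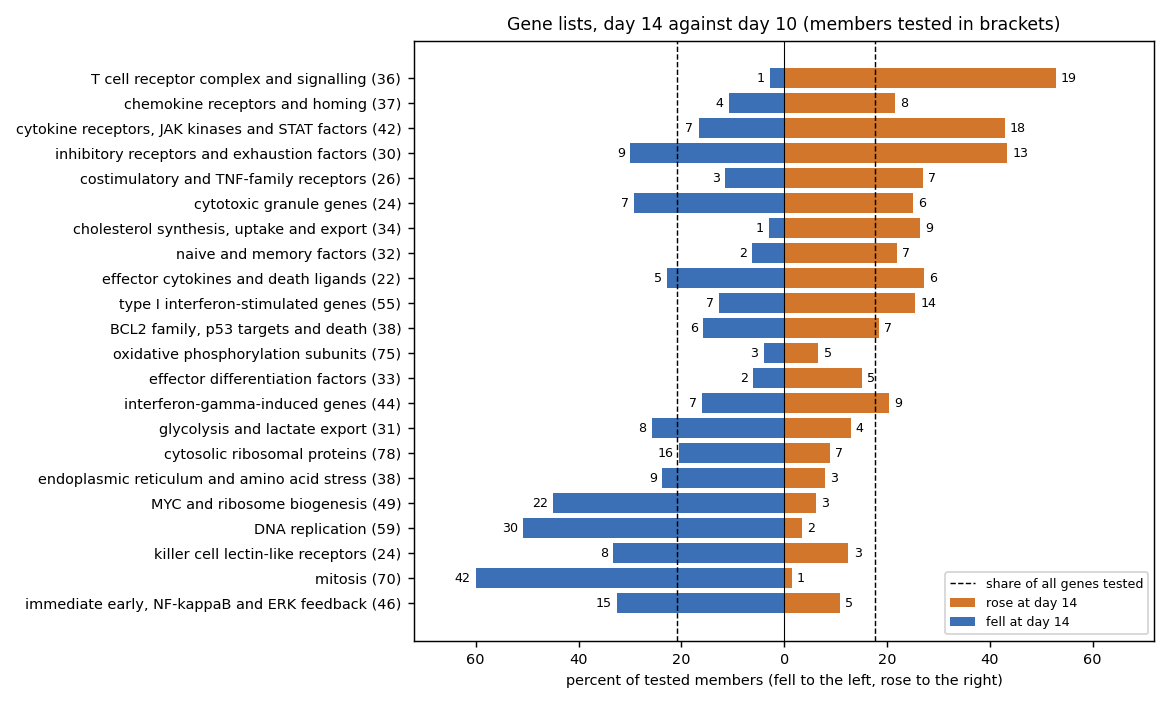
Percent of tested members of each of 22 gene lists that rose (right) or fell (left) from day 10 to day 14, with the number of genes at each bar and dashed lines at the share of all 14862 tested genes (17.6% and 20.9%). The T cell receptor and inhibitory receptor lists extend farthest to the right, and the mitosis, DNA replication and ribosome biogenesis lists farthest to the left.

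Genes of cell death and p53 changed near the background. Of 38 members tested, 7 rose (18.4%, against 17.6% of all genes) and 6 fell (15.8%, against 20.9%). The median over death genes was 0.058, against -0.045 over all genes. Beside Bcl2, the p53 targets Ccng1 and Sesn1 rose from 185 to 272 CPM (log2 0.55, adjusted p = 0.000178) and from 17.2 to 26.2 CPM (0.61, adjusted p = 0.000216). Phlda3, an inhibitor of AKT, had 4.68, 5.32, 5.25, 3.86 and 5.99 CPM at day 10 and 11.4, 9.503 and 12.01 CPM at day 14 (log2 1.12 ± 0.19 (SE), adjusted p = 0.000236). The p53 target Cdkn1a (p21) did not pass (16.7 ± 4.37 and 14.3 ± 1.54 CPM), nor did Bcl2l11 (BIM, 121 ± 12.4 and 96.4 ± 6.66 CPM), Mcl1 (266 ± 18.7 and 251 ± 16.6 CPM) or Fas (41.7 ± 7.51 and 46.5 ± 5.27 CPM). In this group 4 rose and 2 fell without day 10 replicates 1 to 3, 3 fell without day 14 replicate 3, and 6 rose and 3 fell with the monocyte and macrophage markers as a covariate.

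Of 26 costimulatory and TNF-family receptors, 7 rose (26.9%, against 17.6% of all genes) and 3 fell (11.5%, against 20.9%), with a median log2 of 0.16. Tnfrsf1a, the TNF receptor with a death domain, rose from 27.6 to 49.1 CPM (log2 0.83, adjusted p = 2.99e-05), Cd96 from 136 to 192 CPM (0.50, adjusted p = 0.000170) and the CD28 ligand Cd86 from 37.7 to 51.1 CPM (0.44, adjusted p = 0.00130). Tnfrsf4 (OX40) fell from 79.2 to 54.6 CPM (log2 -0.54, adjusted p = 0.0171). The call of Tnfrsf4 was lost without day 14 replicate 2 (adjusted p = 0.0968), without day 10 replicates 1 to 3 together (0.227) and with the monocyte and macrophage markers as a covariate (0.121). Tnfrsf9 (4-1BB) did not pass (385 ± 14.1 and 389.9 ± 59.8 CPM). Of 24 killer receptors and partners, 3 rose (12.5%, against 17.6% of all genes) and 8 fell (33.3%, against 20.9%), with a median log2 of -0.29. The sign of this median depended on low members and on the libraries kept. Among the 13 members at a mean of 5 CPM or more on either day, 3 rose and 5 fell with a median of 0.38. The median was 0.065 without day 10 replicates 1 to 3. Klrk1 (NKG2D), a receptor for stress ligands, had 211, 199, 202, 199.7 and 216 CPM at day 10 and 163, 128 and 125 CPM at day 14 (log2 -0.57 ± 0.10 (SE), adjusted p = 0.000251). Its adaptor Hcst (DAP10) rose from 155 to 275 CPM (log2 0.83, adjusted p = 0.000204). Cd7 rose from 420.5 to 878 CPM (log2 1.06, adjusted p = 0.00264), a call lost without day 10 replicates 1 to 3. Several killer receptor genes are close copies of each other, so reads may be split among them, and without day 14 replicate 3 the falls numbered 5. Without day 10 replicates 1 to 3, 4 rose and 0 fell in the costimulatory list and 2 rose and 4 fell in the killer receptor list. With the monocyte and macrophage markers as a covariate, 8 rose and 0 fell in the former and 3 rose and 4 fell in the latter. The falls of the costimulatory list numbered 1 without day 14 replicate 2.

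Markers of other marrow cells are given by their sums, and their called members stand against 17.6% of all genes that rose and 20.9% that fell. The neutrophil markers summed to 2746 to 10390.4 CPM at day 10 and 3001 to 24010.1 CPM at day 14, with 1 of 24 called and day 14 replicate 1 far below the other two. The sums of the B cell and plasma cell markers were 18.1 to 37.7 CPM at day 10 and 17.1 to 19.1 CPM at day 14, and those of the CD4 and regulatory T cell markers 215 to 313 CPM at day 10 and 133 to 137 CPM at day 14. The largest member of the latter sum was Ikzf2, at 78.7 to 158 CPM at day 10 and 64.3 to 74.3 CPM at day 14. This sum also holds Ctla4 and Il2ra, which CD8 T cells also express, whereas Foxp3, the factor of regulatory T cells, was at 1.91 to 3.66 CPM and 1.39 to 2.46 CPM. Stem and progenitor markers summed to 580.2 to 693 CPM at day 10 and 329 to 484 CPM at day 14, with 4 of 15 fallen (near the background) and 0 risen, and most of this sum is Ly6a (511 to 618 CPM at day 10 and 274 to 427 CPM at day 14), a gene that activated T cells also express. Dendritic cell markers summed to 619 to 1291 CPM at day 10 and 689 to 866 CPM at day 14, with 7 of 19 fallen and 1 risen. Siglech, at 0.260 to 16.5 CPM at day 10, was at 0 in all 3 day 14 libraries. So was Cd209a, which was near the floor at day 10 already (0.0591 to 0.355 CPM). Clec10a was at 2.33 to 4.17 CPM at day 10 and 4.37 to 9.26 CPM at day 14. The natural killer and gamma delta T cell markers summed to 198 to 299 CPM at day 10 and 263 to 415 CPM at day 14, of which Eomes is also a gene of CD8 T cells. Megakaryocyte and platelet markers summed to 3.65 to 9.02 CPM at day 10 and 3.95 to 5.98 CPM at day 14, and stromal and endothelial markers to 48.9 to 54.2 CPM at day 10 and 55.2 to 65.5 CPM at day 14. Beyond a refit with the neutrophil markers as a covariate, given over all genes below, the part of these cells in the gene results was not tested.

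**Figure D5:**
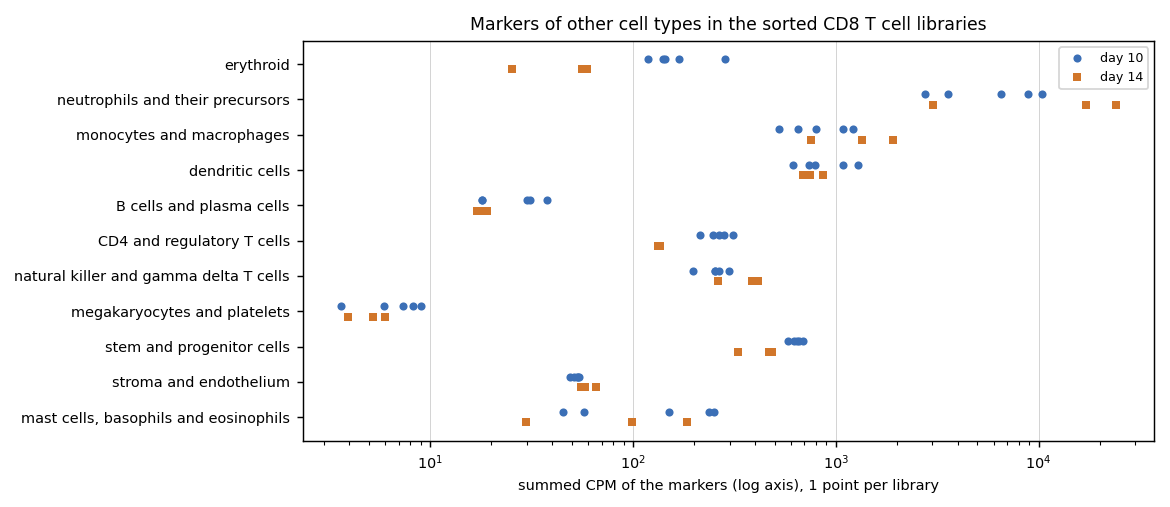
Summed CPM of the markers of 11 other cell types in each untreated library, on a logarithmic axis, with circles for the 5 day 10 libraries and squares for the 3 day 14 libraries. The erythroid sum is lower in every day 14 library, the neutrophil sum spreads widely on both days, and the CD4 and regulatory T cell sum is lower at day 14.

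The untreated course differed from the course under baricitinib for 1535 of 14862 genes (10.3%), by the interaction of day and treatment in the same model, 792 (5.33%) with the more positive change in untreated cells and 743 (5%) with the more negative. The genes with the smallest p were Ndrg1, Osbpl5, Mnda, Itpkb, Pml and Cd200r1. Ndrg1, a hypoxia-responsive gene, fell without drug (log2 -1.20) and had a change of 1.16 under baricitinib (adjusted p of the difference = 0.000259). Cd200r1, an inhibitory receptor, rose without drug (log2 0.79) against -0.74 with it (adjusted p = 0.000481), and Cd244 likewise (1.21 against -0.56, adjusted p = 0.000587). Gzma had a log2 change of -0.26 without drug and of -3.02 with it (adjusted p = 0.000526). For Slc16a1 the changes were -0.69 and 0.41 (adjusted p = 0.000759). The falls of Gzmb (-0.89 and -1.02, adjusted p = 0.742) and Mki67 (-0.78 and -0.99, adjusted p = 0.558) and the rise of Tigit (0.85 and 0.64, adjusted p = 0.612) were not shown to differ between the arms. Among the functional lists, glycolysis had the largest share of members that differed between the arms. There 14 of 31 differed, with a median log2 change of -0.034 without drug and 0.45 with it. In the inhibitory list 12 of 30 differed, with medians of 0.20 and 0.11. In the type I interferon list 20 of 55 differed, with medians of 0.076 and -0.32. In the mitosis list 25 of 70 differed, with medians of -0.30 and -0.72. The share was smaller in every other functional list, and 0 of 75 oxidative phosphorylation subunits differed. The number of differing genes fell to 347 and 332 without day 14 replicate 2 of the untreated group, to 508 and 338 without its replicate 1, and to 443 and 384 without day 14 replicate 2 of the baricitinib group. Without day 10 replicate 4 of the baricitinib group, those with the more negative change numbered 491.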

How the data were processed

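RNA of bulk CD8+ T cells sorted from mouse bone marrow was sequenced in 16 libraries. The authors deposited 1 table of raw read counts per gene, and per the submitters' processing notes HISAT2 2.0.5 was used with the build mm10. How reads were assigned to genes, with which annotation and with which strand setting, is not given in the sources used here. Of 24421 rows, 27 whose gene name is a calendar date (0.234% to 0.293% of the untreated libraries' counts) were dropped, leaving 24394 genes.

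Libraries were grouped by the treatment label. Replicate numbers follow the order of deposit and pair nothing. Genes with low counts were removed with filterByExpr, leaving 14862, counts were scaled by TMM, and edgeR 4.0.16 (R 4.3.3) fitted a robust quasi-likelihood model with a mean per group over all 16 libraries. Contrasts were day 14 minus day 10 in untreated mice, and the same minus the change under baricitinib. P-values were adjusted by Benjamini-Hochberg over all genes, with 0.05 as threshold. The model was tested on simulated data. Levels are CPM on TMM-scaled library sizes and are not divided by gene length, so a gene is compared between libraries and levels are not compared between genes. Differences of CPM were ranked across genes only to choose some of the named genes. The common biological coefficient of variation was 19.8%. Values after ± are the SD over 5 and 3 libraries unless marked SE. No 2 untreated libraries of a group agreed within sampling noise (chi-square per degree of freedom 11.2 or more in 13 pairs).

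The libraries, gene lists and rules for naming genes were chosen with earlier results of these data known. Named genes were the 12 largest rises and falls among called genes at a mean of 10 CPM or more on either day without overlap, the same within the functional lists, the 6 largest differences of CPM each way, key genes of each list, the 4 called members of each list with the smallest p, and the 6 genes with the smallest interaction p. Of the 238 genes these rules gave, the text describes most. Gene positions come from the GENCODE annotation of mm10 and promoter windows from RefSeq (GRCm38.p6). Alternatives were other size factors, filters, tools (DESeq2 1.42.0, limma voom 3.58.1), covariates and left-out libraries.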

Additional observations from a re-analysis of the deposited data

Results flagged for a closer look

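A single library stood far from the others of its group, by the ratio of its gap to the group's range (above 0.71), in 11 of 199 measures of the 5 untreated day 10 libraries. Chance flags about 1 in 20 such groups. Asns had 44.6 CPM in day 10 replicate 5, above the 27.1 to 30.1 CPM of the other 4 libraries. Ccl5 had 2282 CPM in day 10 replicate 3, below the 3767 to 4248 CPM of the other 4 libraries. Gnl3 had 93.4 CPM in day 10 replicate 3, above the 63.1 to 70.3 CPM of the other 4 libraries. Gzmk had 155 CPM in day 10 replicate 3, below the 231 to 254 CPM of the other 4 libraries. Hk1 had 226 CPM in day 10 replicate 5, above the 163 to 174 CPM of the other 4 libraries. Nkg7 had 2992 CPM in day 10 replicate 3, below the 3766 to 4047 CPM of the other 4 libraries. Nop56 had 232 CPM in day 10 replicate 3, above the 196 to 201 CPM of the other 4 libraries. Pim1 had 119 CPM in day 10 replicate 1, above the 75.8 to 87.4 CPM of the other 4 libraries. Rnf122 had 5.88 CPM in day 10 replicate 2, above the 3.49 to 4.14 CPM of the other 4 libraries. Tnfrsf9 had 410.0 CPM in day 10 replicate 5, above the 375 to 384 CPM of the other 4 libraries. Trf had 8.93 CPM in day 10 replicate 5, above the 4.69 to 5.87 CPM of the other 4 libraries. Replicate 3 accounts for 5 of these 11 and replicate 5 for 4.

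The change from day 10 to day 14 differed between the untreated and the baricitinib arm for 67 of 185 genes named above, against 10.3% of all genes tested. Genes were in part named by this test. Many others were named for a large untreated change or its small p, and that change is itself part of the difference tested. The share among named genes therefore cannot be compared with that of all genes. The values are the log2 change without drug minus that with it, from the interaction term at an adjusted p under 0.05 over all genes (edgeR). Among genes that rose without drug, the difference was 2.46 for Fabp4, 1.95 for Apoe, 1.76 for Cd244, 1.57 for Cd7, 1.53 for Cd200r1, 1.40 for Tox2, 1.39 for Cep170b, 1.26 for Chn2 and 1.06 for Ifit1. For others of these it was 1.02 for Rnf122, 0.99 for Pml, 0.99 for Osbpl5, 0.97 for Pim2, 0.96 for Lgals3bp, 0.93 for Itpkb, 0.89 for Ccl5, 0.88 for Ikzf3 and 0.87 for Cd86. Next came values of 0.86 for Rasgrp1, 0.83 for Cxcr3, 0.82 for Ddx58, 0.81 for Gzmk, 0.69 for Fasl, 0.68 for Plcg1, 0.64 for Ubash3a, 0.58 for Selplg and 0.55 for Jak3. Further values were 0.55 for Eomes, 0.54 for Il16, 0.50 for Cd38, 0.47 for Sesn1, 0.45 for Cd101, 0.43 for Nfatc1, 0.34 for Pias1, -0.60 for Tnfrsf1a and -0.79 for Abcg1. The lowest was -0.90 for Susd2. Among genes that fell without drug, it was 1.49 for Mx1, 0.55 for Klrk1, -0.52 for Slc2a1, -0.61 for Tpi1, -0.66 for Gnl3, -0.74 for Gbp3, -0.76 for Gcnt1, -0.99 for Il12rb2 and -1.10 for Slc16a1. It was also -1.15 for Tnfrsf4, -1.18 for Cxcl10, -1.19 for Cxcr4, -1.25 for Satb1, -1.28 for Hk2, -1.39 for Hsp90aa1, -1.51 for Atf4, -1.66 for Mnda and -1.70 for Cxcl9. The lowest values were -1.74 for Nr4a3, -2.36 for Ndrg1, -4.41 for Mcpt8, -4.97 for Car1, -5.41 for Hspa1b and -6.51 for Hspa1a. Among genes named above that did not pass without drug, it was 2.76 for Gzma, 0.96 for Irf7, 0.62 for Usp18, -0.60 for Il18rap, -1.06 for Asns and -1.07 for Ccl3. The cause of these differences was not tested.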

How the results depend on the processing

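The 2623 rises and 3105 falls became 2503 and 3235 with DESeq2 size factors, 2642 and 4075 with no filter on low counts, 2065 and 2265 among genes at 5 CPM or more, 2614 and 3520 with DESeq2, 2550 and 2638 with limma voom, and 2510 and 2399 in the 8 untreated libraries alone. With Rn45s, the neutrophil markers or the monocyte and macrophage markers (chosen after seeing the data) as a covariate they were 2303 and 2484, 2508 and 3152, and 1939 and 2477. Removing Rn45s and Lars2 gave 2606 and 3137. Testing against a fold of 1.5 left 172 and 674, and leaving out day 10 replicates 1 to 3 left 1193 and 1266, where 2 day 10 libraries remain, while leaving out replicates 4 and 5 gave 2859 and 3117. Without 1 untreated library the rises ran from 1961 to 2801 and the falls from 2387 to 3440. In no alternative was a gene called in the opposite direction to its main call. Of the 238 named genes, 36 lost their call without day 10 replicates 1 to 3, 18 with the macrophage covariate and 8 with the Rn45s covariate. The cause was not tested.

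Genes whose course differed between the arms numbered 792 with the more positive and 743 with the more negative change. DESeq2 gave 1016 and 1116, and leaving out 1 of the 16 libraries gave 347 to 1071 and 332 to 954. No paired analysis was possible because the labels give no replicate numbers that tie a day 10 library to a day 14 library.

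With 3 libraries at day 14, small changes depend on single libraries, as given beside the genes. Day and any difference in harvest, sort or sequencing run between the days cannot be told apart, since the labels give no batch.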

Other observations

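The host genes of small nucleolar RNAs were looked at after 3 of them appeared among the 12 largest falls, so their values are a description. Of 13 Snhg genes tested, 0 rose and 12 fell, against 17.6% and 20.9% of all genes, with a median log2 change of -1.84. Snhg12 went from 11.6 to 2.99 CPM, Snhg17 from 8.996 to 2.50 CPM, Snhg9 from 11.3 to 3.14 CPM, Snhg6 from 33.3 to 19.0 CPM and Snhg3 from 37.9 to 20.2 CPM, as group means at day 10 and day 14. Snhg10, from 2.14 to 1.57 CPM, was the 1 member that did not pass. The ribosomal RNA gene Rn45s held 1.15% to 5.81% of counts at day 10 and 1.70% to 2.52% at day 14. Refits with Rn45s as a covariate or with its counts removed were run, but are not given for the Snhg genes. Beyond these refits the part of Rn45s in these falls was not tested.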
